A study of Drosophila melanogaster with 4 samples.

Results

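In the 8- to 20-h library of embryonic gonad cells from Drosophila melanogaster, 168 of 12569 cells were chosen by 4 genes of male-specific somatic gonadal precursors (SGPs) and by low germline markers. A gated cell held at least 1 UMI (a unique molecular identifier, which stands for 1 captured transcript) of Abd-B and at least 2 UMIs summed over Six4, Sox100B, and eya. Its 9 germline markers (nos, vas, pgc, zpg, aub, AGO3, gcl, ovo, and tej) had to sum to under 5 UMIs per 10000. These cells were 1.34% of the library (exact binomial 95% interval from 1.14% to 1.55%) and 2.51% of its 6696 germ-marker-low cells. They were set against the 12401 other cells, the 6528 other germ-marker-low cells, and 119 germ-marker-low cells with at least 2 UMIs of the 3 SGP genes and 0 of Abd-B.

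All embryos used for these libraries carried vas-GFP transgenes on chromosomes II and III, a reporter driven in the germline, and no treatment was given. For the 8- to 20-h library, sorted germ cells of 8 to 12 h and sorted, enzyme-dissociated gonads of 12 to 20 h were pooled, so the age and the embryo of a cell are not known, and somatic cells entered with the sorted gonads. A 0- to 8-h scRNA-seq library of germ cells and a multiome library of nuclei from 0 to 20 h, which reads nuclear RNA and open chromatin of the same nucleus, were gated in the same way. Each library is 1 sample, so no test between samples was possible. Intervals cover counting error only, and a level is given as pooled UMIs per 1000000 (CPM).

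SGPs are mesodermal cells that join the primordial germ cells to form the embryonic gonad. Male-specific SGPs arise behind the other SGPs, in a segment patterned by the Hox protein Abd-B, and join the posterior end of the male gonad. In female embryos these cells die before they join it, under the control of the sex determination gene dsx. Six4 is a homeodomain factor and Eya a co-activator that it binds, while Sox100B is a Sox-family factor that marks the male-specific SGPs.

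The 4 genes that chose the cells were unequally seen. Abd-B had 708 UMIs over the 168 cells, with a lowest value of 1, a median of 2, and a highest of 31 per cell, and 44 cells were admitted by a lone Abd-B UMI. Six4 was detected in 133 cells with 703 UMIs, eya in 91 cells with 169 UMIs, and Sox100B in 12 cells with 14 UMIs. Six4 was the only SGP gene detected in 73 cells, Six4 with eya in 52, and eya alone in 31, whereas all 3 were detected in 5 cells. The gate therefore rested almost wholly on Six4 and eya, and Sox100B was at 1 UMI in 10 of its 12 cells. Just inside the gate, the 19 cells with 1 Abd-B UMI and 2 SGP-gene UMIs had Six4 at 60.2 CPM and CG42342 at 80.3 CPM. Just outside it, 161 cells with Abd-B and 1 SGP-gene UMI had Six4 at 26.6 CPM and CG42342 at 290 CPM.

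Gated cells fell into separate ranges of CG42342, a gene named only by its annotation number, which the gate did not use. In 45 cells CG42342 lay between 23.3 and 106.8 UMIs per 10000, and in the other 123 cells it lay at or under 14.1 per 10000, with 55 of them at 0. A line at 20 per 10000, set after these values had been seen, parts both ranges, and 8 gated cells lie between 10 and 40 per 10000. Over the whole library there was no such gap, since 494 cells lay from 10 to 40 per 10000. The 45 CG42342-high cells had a median of 4067 UMIs. Of the CG42342-low cells, 90 had under 30000 UMIs, with a median of 6081.5, and 33 had at least 30000, with a median of 40159. The genes named in the next paragraphs were picked from these same cells, so their values describe the 3 ranges and are no test of them.

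**Figure D1:**
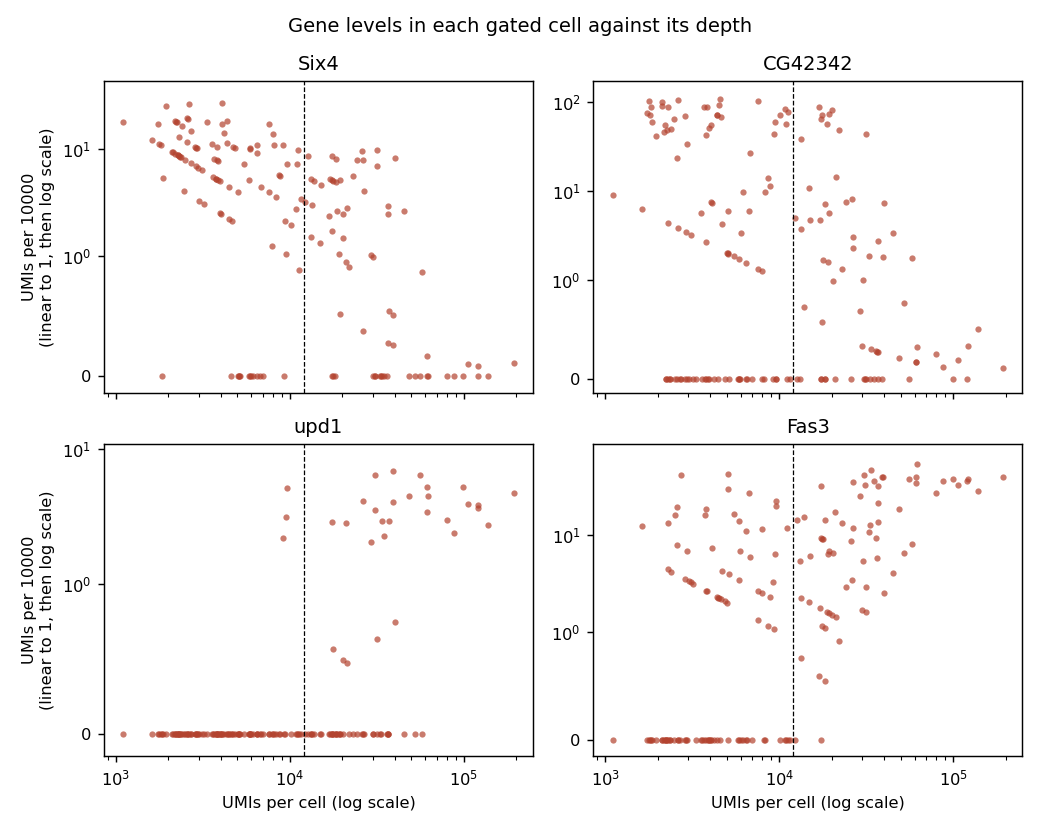
UMIs per 10000 of Six4, CG42342, upd1, and Fas3 in each of the 168 gated cells (points) against the UMIs of the cell, with the dashed line at 12000 UMIs. CG42342 has a band of 45 cells between 23.3 and 106.8 and none between 14.1 and 23.3, while upd1 is detected in 32 cells.

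Abd-B was at 911 CPM in the CG42342-high cells, 294 CPM in the CG42342-low cells under 30000 UMIs, and 79.3 CPM in those at or above 30000, and Six4 at 496, 514, and 53.5 CPM in that order. Both genes chose the cells, and a required UMI is a higher CPM in a shallower cell, so no order of the ranges is read from them. The posterior Hox gene abd-A, which the gate did not use, was at 463 CPM in the CG42342-high cells, against 142 and 219 CPM in the other ranges and 115.1 CPM in the other germ-marker-low cells. dsx, the effector of the sex determination pathway, was at 197, 325, and 259 CPM. tj, which encodes a Maf factor of SGPs that intermingle with germ cells, was detected in 13.3% of the CG42342-high cells at 44.8 CPM, against 78.9% at 289 CPM and 100% at 208 CPM in the other 2 ranges. Wnt2, a ligand made in the embryonic gonad soma, was at 218, 306, and 100.5 CPM.

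Several genes of matrix and cytoskeleton were higher in the CG42342-high cells than in the other 2 ranges, and those given here are a selection. SPARC and CG34355 were among the 15 genes that led this range. Others of the 15 were SP1029, CG9815, CG15211, Alp4, CG1136, CG6836, CG33939, and jhamt. SPARC, a collagen-binding matrix protein, was at 11047 CPM with UMIs in 97.8% of the 45 cells, 35.6-fold (33.1 to 38.4) its level in the rest of the gated cells. Msp300, a giant nuclear-envelope protein of the nesprin family, was at 4825 CPM, against 325 and 838 CPM in the other 2 ranges. stl, a secreted metalloprotease, was at 1036 CPM, against 60.9 and 23.2 CPM. CG34355 was at 935 CPM in 95.6% of these cells, against 40.6 CPM in the CG42342-low cells under 30000 UMIs and 0 UMIs in those above, which allows up to 1.51 CPM. nord, a secreted modulator of BMP signalling, was at 278 CPM, against 22.7 and 1.01 CPM, and ringer, a microtubule-binding protein, at 642 CPM, against 5.97 and 30.8 CPM. The integrin subunit gene mew was at 749 CPM, against 183 and 81.8 CPM, and the receptor gene Egfr at 257 CPM, against 107 and 33.3 CPM.

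Several transcripts were almost confined to the CG42342-high range among gated cells. CG14569 had 200 UMIs in it and 4 in the other 123 cells, and obst-E, which encodes a chitin-binding protein, had 110 and 2. sim, the bHLH-PAS factor known from the midline of the nerve cord, had 37 UMIs in 48.9% of the 45 cells and 0 in the other 123, at least 104-fold higher against a floor of 3 counts over the pooled cells. retn, an ARID-domain DNA-binding factor, had 70 UMIs in 55.6% of the cells, against 7 UMIs in the other gated cells. Conversely, the JAK-STAT ligand genes upd1 and upd3 and the cardiac and visceral factor genes tup, org-1, and tin had 0 UMIs there, which allows up to 8.96 CPM for each.

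The 90 CG42342-low cells under 30000 UMIs were led by other genes. E(spl)m7-HLH, a bHLH repressor induced by Notch, was at 283 CPM in them, against 2.99 CPM in the CG42342-high cells and 28.3 CPM in the deep cells, 11.5-fold (8.57 to 15.6) over both together. stumps, the adaptor of the FGF receptors, was at 54.9 CPM, against 8.96 and 4.54 CPM, and htl, an FGF receptor of the mesoderm, at 99.04 CPM, against 5.97 and 32.8 CPM. slbo, a C/EBP factor, was at 147 CPM, against 80.6 and 10.6 CPM, and croc, a forkhead factor, at 166 CPM, against 50.8 and 36.4 CPM.

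The 33 deep CG42342-low cells had high levels of genes known from the testis hub, the niche at the front of the male gonad. The JAK-STAT ligand gene upd1 was at 306 CPM, the adhesion genes Fas3 and CadN at 2860 and 628 CPM, the zinc-finger gene esg at 1053 CPM, and bbg, a PDZ-domain protein of cell cortices, at 523 CPM. The 89 other germ-marker-low cells of at least 30000 UMIs were close to them, with upd1 at 271 CPM, Fas3 at 2673 CPM, CadN at 585 CPM, esg at 1019 CPM, and bbg at 420 CPM. CG5149, which the paper used as a marker of female SGPs, was also high at this depth. Gated cells had it at 463 CPM from 30000 to 60000 UMIs and 328 CPM above. The other germ-marker-low cells had 591 and 520 CPM. Of 6149 genes compared between these deep cells, 67 were past 2-fold higher in the gated cells (1.09%) and 66 past 2-fold lower (1.07%). Abd-B, although part of the gate, was at 79.3 CPM in the deep gated cells and 70.7 CPM in the other deep cells, a ratio of 1.12 (0.922 to 1.36). Mlc2, a muscle myosin light chain, was at 265 CPM in the gated and 73.6 CPM in the other deep cells, and its part in the result was not tested.

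**Figure D2:**
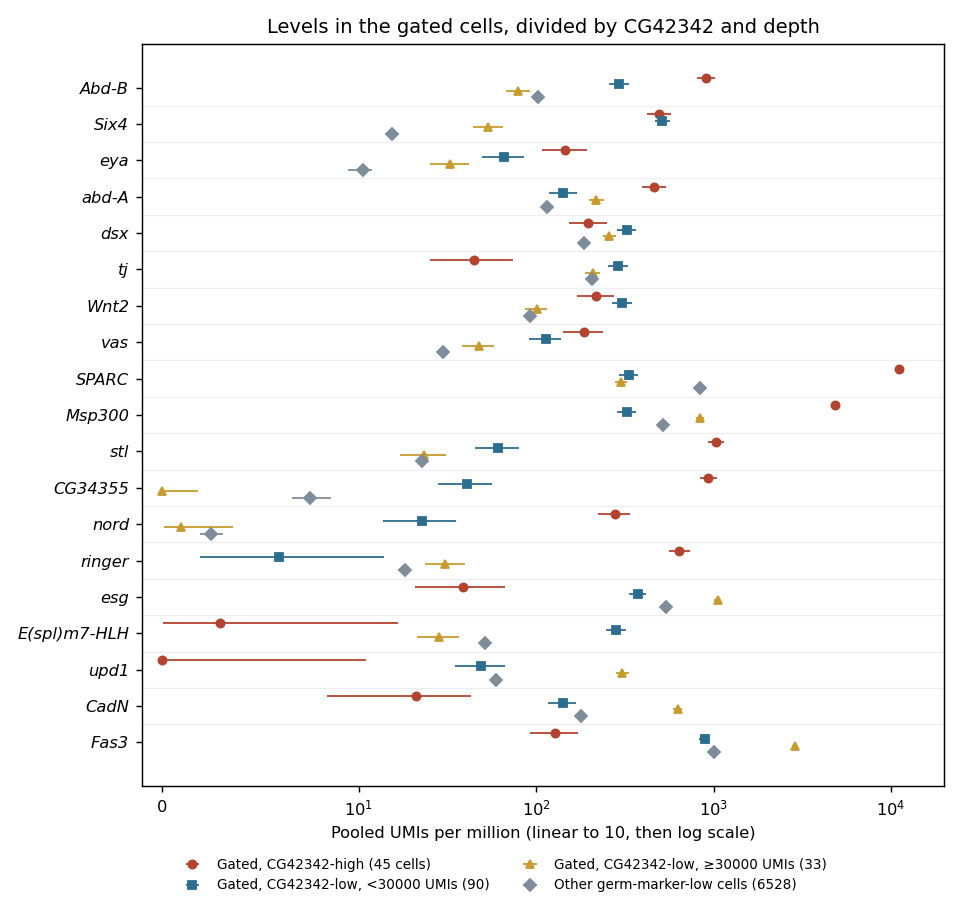
CPM with exact 95% counting intervals for 19 genes in the 45 CG42342-high, 90 CG42342-low, and 33 deep CG42342-low gated cells, and in the other germ-marker-low cells. SPARC lies at 11047 CPM in the first range and at 332 and 301 CPM in the other gated ranges, while Fas3 runs the opposite way, from 128 CPM to 2860 CPM.

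The 3 ranges entered pooled values unequally, since they differed in depth. Gated cells had a median of 8077.5 UMIs (1104 to 192972), against 3232 in the other germ-marker-low cells and 4180 in the Abd-B-negative cells. The 69 gated cells of at least 12000 UMIs held 84.9% of all gated UMIs. The gated share of germ-marker-low cells was 1.08% under 3000 UMIs, 1.67% from 3000 to 6000, 2.95% from 6000 to 12000, 15.02% from 12000 to 30000, 26.4% from 30000 to 60000, and 30.6% above. With every cell thinned to 2000 UMIs before gating, 28 of 9105 cells passed (0.308%). Six4, whose required UMIs weigh more in shallow cells, was at 1199 CPM in the gated cells of the shallowest band and 4.42 CPM in those of the deepest, where the other cells had 0.963 CPM.

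**Figure D3:**
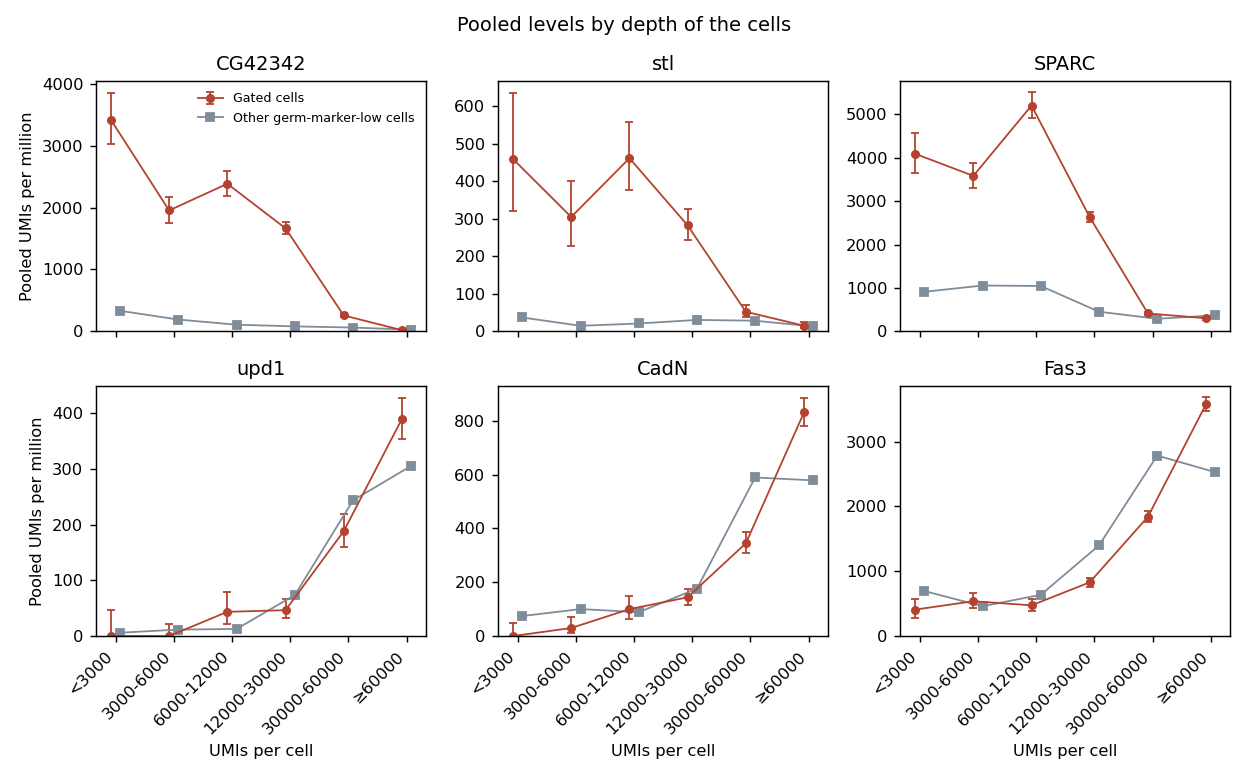
CPM of 6 genes in gated cells (circles, with exact 95% counting intervals) and other germ-marker-low cells (squares) in 6 bands of UMIs per cell. CG42342, stl, and SPARC are higher in gated cells up to 30000 UMIs, and upd1, CadN, and Fas3 are highest at or above 30000 UMIs in both sets.

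Over all other cells, the pooled gated cells were led by genes of the deep range. Of 7279 genes with at least 10 expected UMIs, 1011 were past 2-fold higher (13.9%) and 2359 past 2-fold lower (32.4%), and germ-marker-high cells made up 5873 of the cells compared. With median-of-ratios scaling 1503 were higher and 1637 lower. The 20 genes with the highest lower bounds included upd3 (113 CPM in gated cells against 8.48 CPM in all other cells, 13.3-fold), bbg (11.4-fold), the T-box gene org-1 (11.0-fold), the LIM-homeodomain gene tup (10.6-fold), CadN (9.08-fold), and Fas3 (7.38-fold). The same 20 held genes of the CG42342-high range, namely nord (12.9-fold), ringer (10.8-fold), the alkaline phosphatase gene Alp4 (10.7-fold), stl (9.34-fold), and Kal1 (10.0-fold). Kal1, which encodes an anosmin-type matrix protein, had 9.34 expected UMIs and so lay outside the 7279 genes. All 20 were also past 2-fold over the other germ-marker-low cells, where 2.32% of tested genes were higher and 9.81% lower. The 20 were picked from these same gated cells, over cells that include the germ-marker-low ones. This count and those that follow for the 20 therefore describe them and are no test. In averages over cells, which give each cell equal weight, all 20 were past 2-fold over all other cells (5.93% of tested genes) and 15 over the other germ-marker-low cells (5.33%). With only cells under 12000 UMIs on both sides, 7 of the 20 reached 10 expected UMIs and 3 of these, stl, ringer, and wb, were past 2-fold, while CadN and Fas3 were at 0.647 and 0.855 of their levels in the other germ-marker-low cells.

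Under 12000 UMIs the 99 remaining gated cells were led by the genes of the CG42342-high range. CG34355 was at 397 CPM in gated and 9.24 CPM in other germ-marker-low cells, a 43.0-fold difference (35.0 to 52.7). stl was 18.8-fold, CG30069 12.8-fold, ringer 12.6-fold, and CG42342 12.3-fold higher. SPARC was 4.36-fold, Msp300 3.98-fold, mew 5.61-fold, and Egfr 4.57-fold higher. nord (36.2-fold) and Kal1 (20.5-fold) were below 10 expected UMIs here. In this comparison 195 of 4207 tested genes were past 2-fold higher (4.64%) and 458 past 2-fold lower (10.9%).

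The listed gene groups behaved as follows in the pooled comparison with the other germ-marker-low cells, in which the median over all 7279 tested genes was 1.01 and 2.32% of genes were past 2-fold higher and 9.81% lower. Of 18 tested gonadal soma factors, 7 were past 2-fold higher, among them the gate genes Six4 and eya, the zinc-finger gene zfh1 (942 against 456 CPM), and the E-cadherin gene shg, while srp and toy were lower, with a list median of 1.62. Of 7 tested JAK-STAT genes, upd1 and upd3 were higher (median 1.53). Of 12 tested BMP and activin genes, Dad and brk, which encode an inhibitory Smad and a repressor of BMP targets, were higher (median 1.29). Under 12000 UMIs Dad was again past 2-fold, and upd1, upd3, and brk were below 10 expected UMIs. Listed genes past 2-fold higher there but not in the pooled comparison included abd-A, Wnt2, chinmo, and the Cdc25 gene stg. Others were fz2, htl, Sox14, rdx, E(spl)m7-HLH, robo2, SPARC, and loco. Listed genes past 2-fold lower only there included Ubx, fz, Wnt6, spz, rho, vn, neur, and Buffy. Of 14 tested sex determination genes 0 were past 2-fold (median 1.23), a count that the share over all genes makes unremarkable, and dsx was at 269.9 CPM in gated and 185 CPM in other germ-marker-low cells.

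Markers of several other tissues were lower in gated than in other germ-marker-low cells, but not all. Of 12 muscle markers 9 were past 2-fold lower (median 0.20, summed level 1263 CPM against 3858 CPM in other germ-marker-low cells), and of 6 tested epidermis markers 5 were lower (35.2 against 464 CPM). Hemocyte markers summed to 44.7 CPM, against 164 CPM, with Hml, He, NimC1, and eater at 0 UMIs in gated cells. The collagen IV genes Col4a1 and vkg and the matrix genes Ppn and Pxn, known from hemocytes and fat body, were also lower, and Col4a1 and vkg had 0 UMIs in the CG42342-high cells whose SPARC was at 11047 CPM. Glia markers summed to 394 CPM, against 327 CPM, and hindgut and posterior factors to 22.5 CPM, against 23.5 CPM, with byn at 0 in gated cells. Fat body markers summed to 96.1 CPM, against 215 CPM, with Fbp1, Fbp2, and the 3 Lsp genes at 0, and Fatp1 was past 2-fold higher under 12000 UMIs. Trachea markers summed to 25.4 CPM, against 93.4 CPM, with trh at 0. Among 16 cell cycle genes 8 were past 2-fold lower, PCNA and CycB among them, while their summed level was 1447 CPM in gated and 1403 CPM in other germ-marker-low cells. Against the Abd-B-negative cells under 12000 UMIs, where 8.06% of 4207 genes were past 2-fold higher and 7.20% lower, the fat body markers FASN1, Fatp1, and apolpp (3 of 3 tested), the trachea markers verm and serp (2 of 2), and 4 of 5 epidermis markers were higher, and 7 of 12 muscle markers lower. The median epidermis ratio there was infinite, because most of these markers had no UMIs in the Abd-B-negative cells. Pooled over all depths, 4 of 6 epidermis markers were instead lower and 1 higher (35.2 against 376 CPM). In that pool 2 of 4 fat body markers were higher and 1 lower, 0 of 2 trachea markers were past 2-fold, and 1 of 12 muscle markers was past it each way. Over all 7279 genes 8.63% were higher and 10.7% lower. The part of these tissue markers in the results was not tested.

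Against the 119 Abd-B-negative cells with the same SGP genes, 628 of 7279 genes were past 2-fold higher in gated cells (8.63%) and 780 lower (10.7%). With so few cells on one side, the counting interval left out a ratio of 1 for only 317 of the 628 and 419 of the 780. With median-of-ratios scaling 753 were higher and 557 lower. Idgf4, a secreted chitinase-like growth factor, led with 575 CPM in gated and 71.4 CPM in Abd-B-negative cells (8.04-fold, 6.17 to 10.7). Next came CG3168 (10.3-fold), pirk, a negative regulator of the Imd immune pathway (7.02-fold), the aquaporin-family gene Eglp4 (6.51-fold), and Esyt2, a membrane tether (5.79-fold). Idgf4 belonged to the deep range (844 CPM) and Eglp4 to the CG42342-high range (755 CPM), so the list mixed both. The Wnt receptor-related kinase gene drl (77.1 against 230 CPM), the glutathione transferase gene GstS1 (199 against 597 CPM), and the mitochondrial genes mt:CoII and mt:CoIII (0.44- and 0.43-fold) were lower. Under 12000 UMIs mt:CoII and mt:CoIII stood at 0.902 and 0.889, and SPARC was 5.94-fold, Eglp4 20.8-fold, and CG42342 4.87-fold higher. The CG42342-high range held 45 of the 168 gated and 15 of the 119 Abd-B-negative cells.

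The germline ceiling removed cells of the CG42342-high range. Among all 383 CG42342-high cells of the library, 45 were gated, 72 met the Abd-B and SGP-gene parts but lay over the ceiling, and 266 lay elsewhere, 53 of them with Six4, with median depths of 4067, 3521, and 1601 UMIs. The 45 gated and the 72 cells over the ceiling had Abd-B at 911 and 866 CPM, stl at 1036 and 1082 CPM, Msp300 at 4825 and 4884 CPM, and SPARC at 11047 and 8434 CPM. Between them 79 of 2982 genes were past 2-fold higher in the gated cells (2.65%) and 276 lower (9.26%). The mitotic cyclin gene CycB, which the ceiling did not use, was at 2.99 and 303 CPM. vas, the germline helicase gene whose promoter drives the reporter, at 185 and 472 CPM, and nos, at 0 and 15.8 CPM, were part of the sum that divided these cells. Of 161 cells over the ceiling, 64 were over it only through vas, and these had nos at 6.82 CPM and CG42342 at 4001 CPM. vas was also higher in gated cells than in the other germ-marker-low cells (79.6 against 30.01 CPM), although it was part of the ceiling. In that pooled comparison it was the only 1 of 9 germline markers past 2-fold higher, against 2.32% of tested genes. In averages over cells zpg, gcl, ovo, aub, and vas were past it (5 of 9, against 5.33% of tested genes). Under 12000 UMIs zpg, ovo, and vas were (3 of 5 tested, against 4.64%). The source of the vas RNA and of the other germline RNAs in gated cells was not tested.

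Neighbours were counted in genes the gate did not use. In 50 principal components of 2000 variable genes, computed without the gate genes and the germline markers, 31.5% of the 20 nearest neighbours of a gated cell were gated, where the library holds 1.34% and the germ-marker-low cells 2.51%, and 149 of the 168 had at least 1 gated neighbour. The share was 37.5% for gated cells of at least 12000 UMIs, where bands of germ-marker-low cells were 15.02% to 30.6% gated. Under 12000 UMIs it was 27.3%, where the bands were 1.08% to 2.95% gated. Of the neighbours of the Abd-B-negative cells 17.0% were gated, and 86 of the 119 had at least 1, so gated neighbours were not particular to gated cells. Scrublet called 2 of 168 gated cells doublets (1.19%), against 549 of 12401 other cells (4.43%), and both scRNA-seq libraries shared 0 cell barcodes. In the 0- to 8-h library 4 of 3802 cells passed the gate (0.105%, 0.0287% to 0.269%), with 2690, 5615, 14607, and 39855 UMIs, and none of the 4 reached 20 UMIs of CG42342 per 10000.

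Nuclei of the multiome library, which the rule did not use, gave a measure of sex. The same gate held 22 of 3022 nuclei (0.728%, 0.457% to 1.10%). ATAC counts in X-linked peaks over those in autosomal peaks parted them, since males have 1 X chromosome, and nuclei under 0.2 with at least 1000 ATAC counts were called male-like. Of 21 gated nuclei with that depth 16 were male-like (76.2%, 52.8% to 91.8%), at 0.124 to 0.169, and 5 were female-like, at 0.255 to 0.268. Among other germ-marker-low nuclei 360 of 682 were male-like (52.8%). These had no gap at the line, with male-like nuclei up to 0.1999 and female-like ones from 0.2001. Which of them count as male-like below therefore depends on where the line is set. The male dosage compensation RNA roX1 was detected in 15 of the 16 male-like gated nuclei, at up to 176 UMIs, and at 0 to 5 UMIs in the 5 female-like ones. The male label thus did not hold for the whole gate, and no such measure was available for the scRNA-seq cells, whose gene list used here holds neither roX gene.

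**Figure D4:**
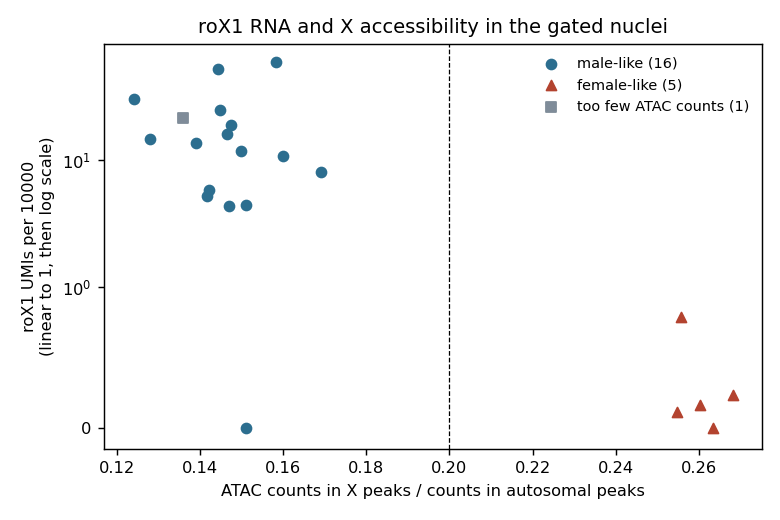
roX1 UMIs per 10000 against ATAC counts in X peaks over those in autosomal peaks for the 22 gated nuclei, with the dashed line at 0.2. The 16 male-like nuclei lie between 0.124 and 0.169 and the 5 female-like nuclei between 0.255 and 0.268, with 1 nucleus below 1000 ATAC counts.

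CG42342 varied widely among the gated nuclei too, with no gap at the line used for cells. At 20 UMIs per 10000 or more stood 7 of the 22 nuclei, 6 of them male-like and 1 with too few ATAC counts, and the values were 22.6, 24.3, 27.5, 29.6, 36.7, 51.8, and 173. The 5 female-like nuclei had 0.382 to 1.79 per 10000 and between 30233 and 130854 UMIs, and the other 10 male-like nuclei had 0.451 to 18.8 per 10000. The 7 high nuclei were shallower (1156 to 49477 UMIs) than most of those 10 male-like nuclei (2028 to 353052 UMIs), so the gate genes Abd-B (431 against 63.6 CPM) and Six4 (759 against 47.6 CPM) are given as values only. abd-A was at 290 CPM in the high nuclei, against 107 CPM in the 10 others. retn was at 487 against 13.5 CPM, nord at 562 against 52.7 CPM, CG34355 at 862 against 93.9 CPM, sim at 140 against 16.1 CPM, and SPARC at 2117 against 725 CPM. Of the 15 genes that led the CG42342-high cells, 7 were higher in the high nuclei by their interval and 7, with CG14569, obst-E, and Alp4 among them, had 0 UMIs there. Of the 15 that led the shallow CG42342-low cells, 8 were also higher in the high nuclei, with E(spl)m7-HLH at 112 against 1.93 CPM, so those genes did not part the nuclei as they parted the cells. The share of all genes higher in the high nuclei was not counted, so neither count can be set against it. The female-like gated nuclei had dsx at 357 CPM and CG42342 at 77.3 CPM, against 111 and 631 CPM in all 16 male-like gated nuclei.

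Over the other germ-marker-low nuclei of either sex, 315 of 6712 genes were past 2-fold higher in the 22 gated nuclei (4.69%) and 839 lower (12.5%). Compared within male-like nuclei, 392 of 6388 genes were past 2-fold higher in gated nuclei than in 365 other germ-marker-low ones, 5 of them Abd-B-negative with SGP genes (6.14%) and 789 lower (12.4%). nord was 11.2-fold (6.31 to 21.5), Kal1 7.63-fold, CG34355 5.28-fold, CG42342 2.93-fold, and SPARC 2.42-fold higher. Of the 20 genes that led the cells under 12000 UMIs, 6 of 19 tested were past 2-fold here, and of the 20 that led over all other cells 2 of 16 were, nord and Kal1. tj was 3.32-fold higher (119 against 35.8 CPM), Wnt2 2.58-fold, and abd-A 2.11-fold. roX1 was at 822 CPM in gated and 2098 CPM in other male-like nuclei. The groups differed widely in depth. The 16 male-like gated nuclei had a median of 71594.5 UMIs, against 2589.5 in 360 of the other male-like nuclei. roX1 was at 51.9 UMIs per 10000 in the gated nucleus of 1156 UMIs, 0 in that of 2570, and 4.31 in that of 353052. The part of depth in these ratios was not tested.

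Open chromatin was compared in the same male-like nuclei, 16 gated with 327255 ATAC counts and 365 others with 1695623. Of 8910 peaks with at least 10 expected counts, 163 were past 2-fold higher (1.83%) and 542 lower (6.08%), with a median ratio of 1.01. Across the bithorax complex, which holds the Hox genes Ubx, abd-A, and Abd-B on chromosome arm 3R, 30 of 43 compared peaks were at or above 1, with a median of 1.28. Of all 8910 peaks, 4546 were at or above 1. Over the abd-A gene 5 of 7 peaks were at or above 1 (median 1.61), and between the abd-A and Abd-B genes, the stretch that contains the iab regulatory domains, 16 of 18 were (median 1.48). In these 25 peaks 10 had a lower bound above 1, against 813 of all 8910 peaks. On the Ubx side of abd-A the median was 1.05 over 12 peaks, and over the 6 peaks of Abd-B itself it was 0.985. The peak of highest count in Abd-B, which spans coding exon and 5' leader, was 1.58-fold higher (1.32 to 1.88) with 164 counts. Outside the complex the single compared peak of Six4 was 1.88-fold (1.38 to 2.54) and that of nord 2.31-fold higher. Peaks of other named genes were mixed. Wnt2 was at 1.71 in its 1 compared peak, and medians were 1.70 over 2 peaks of stl, 1.46 over 4 of CG42342, and 1.34 over 3 of eya. Medians were 0.949 over 2 peaks of Sox100B, 1.00 over 4 of CG34355, and 0.930 over 5 of dsx. Wnt2, stl, CG42342, eya, CG34355, and dsx each had 1 peak with a lower bound above 1. Sox100B and SPARC (median 1.32 over 2 peaks) had 0.

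**Figure D5:**
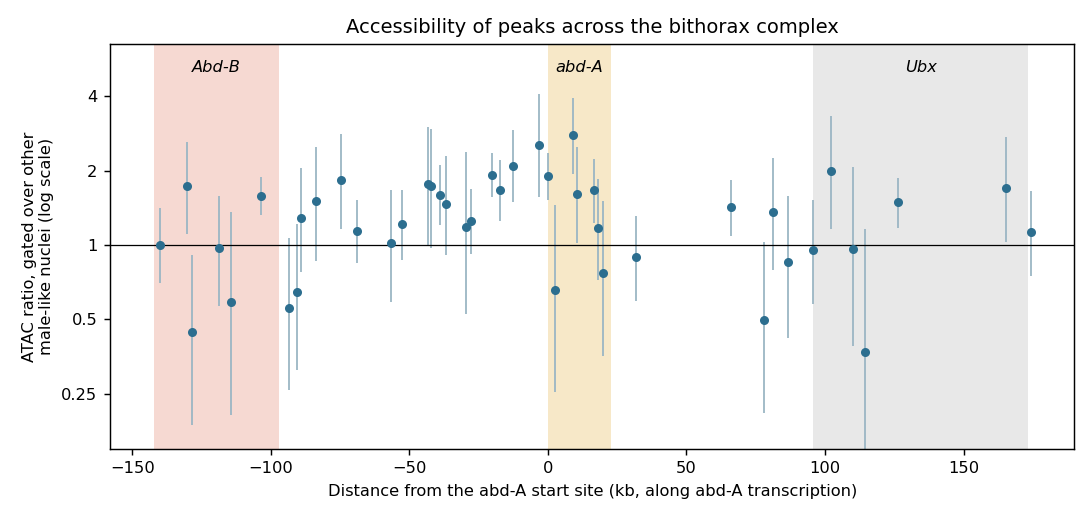
Ratio of ATAC counts per 1000000 in gated over other male-like germ-marker-low nuclei (points, exact 95% counting intervals, log scale) for the 43 compared peaks of the bithorax complex, by distance from the abd-A start site along its transcription. The abd-A gene has a median ratio of 1.61, the stretch between the abd-A and Abd-B genes one of 1.48, and the Ubx side one of 1.05.

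The central 300 bases of 3 of the compared peaks are printed because they are the non-exonic peaks with the highest lower bound in an abd-A intron, in a CG42342 intron, and between abd-A and Abd-B. All are given on the plus strand of the RefSeq BDGP6 (dm6) genome, and capitals mark matches, on either strand, to TTTATG (a sequence preferred by Abd-B), ACAATG (core of Dsx sites), or TGATAC (core of Six4-type sites). The abd-A peak was 2.78-fold higher in gated nuclei (1.94 to 3.93, 52 counts) and its window lies at chr3R:16820984-16821283. The CG42342 peak was 3.35-fold higher (2.06 to 5.37, 31 counts), with its window at chr3R:16511330-16511629. The peak between abd-A and Abd-B was 2.55-fold higher (1.56 to 4.07, 28 counts), with its window at chr3R:16833042-16833341, within the transcribed regions of lncRNA:iab8 and MSAmiP.
abd-A intron: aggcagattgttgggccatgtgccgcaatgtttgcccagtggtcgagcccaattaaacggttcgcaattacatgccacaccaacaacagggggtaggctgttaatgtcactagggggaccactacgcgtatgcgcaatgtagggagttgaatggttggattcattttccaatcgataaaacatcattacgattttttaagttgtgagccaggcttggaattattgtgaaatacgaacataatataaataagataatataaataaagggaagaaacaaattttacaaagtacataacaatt
CG42342 intron: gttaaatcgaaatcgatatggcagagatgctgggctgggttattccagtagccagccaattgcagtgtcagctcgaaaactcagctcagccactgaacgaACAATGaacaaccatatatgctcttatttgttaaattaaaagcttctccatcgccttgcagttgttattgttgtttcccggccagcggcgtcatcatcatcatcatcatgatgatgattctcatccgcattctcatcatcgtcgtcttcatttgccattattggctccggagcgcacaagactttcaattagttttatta
abd-A to Abd-B: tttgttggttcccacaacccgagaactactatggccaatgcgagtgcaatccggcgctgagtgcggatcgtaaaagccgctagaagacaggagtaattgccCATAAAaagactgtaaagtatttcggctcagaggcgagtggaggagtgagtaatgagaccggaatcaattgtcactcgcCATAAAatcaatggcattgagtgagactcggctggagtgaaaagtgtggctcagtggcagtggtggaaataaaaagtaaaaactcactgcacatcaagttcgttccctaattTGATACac
The window between abd-A and Abd-B held 2 matches of TTTATG, both as its reverse complement CATAAA, and 1 of TGATAC, the CG42342 window held 1 of ACAATG, and the abd-A window held 0 of the 3. Among the central windows of all 19437 peaks, 22.0% held TTTATG, 17.05% ACAATG, and 5.90% TGATAC. These matches describe letters and not binding.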

How the data were processed

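Embryonic cells carrying vas-GFP were profiled with 10x scRNA-seq in 2 libraries, and nuclei with the multiome assay in 1 library. The authors deposited unnormalized UMI counts per gene and cell, made with Cell Ranger 6.1.2 and the BDGP6 reference, and for nuclei counts per gene and per ATAC peak made with Cell Ranger ARC 1.0.0. Low-quality nuclei and doublets had been removed from the multiome by the authors. No cell was removed here, and doublets were called with Scrublet in scanpy 1.11.5 and kept.

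Gated cells were summed, and ratios of pooled CPM were given exact conditional 95% intervals (scipy 1.17.1). Genes needed 10 UMIs expected in the gated cells, and a gene was counted past 2-fold without a test, because cells are not replicates. The genes named were those of the listed groups, the 20 with the highest lower bounds over all other cells, and the 15 highest and 10 lowest over Abd-B-negative cells, with at least 20 UMIs in at least 20% of cells. The members and lists were chosen with earlier results of these data known, and the 12000-UMI, 30000-UMI, and CG42342 limits, with the genes read from those ranges, after seeing the data. Sums and ratios were checked on simulated counts. Alternatives changed the gate, depth, scaling, and filter. Sequences came from the RefSeq genome of the same assembly.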

Additional observations from a re-analysis of the deposited data

How the results depend on the processing

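The gated share of the library, 1.34%, was 0.987% with at least 2 Abd-B UMIs, 0.501% with at least 2 of the 3 SGP genes detected, 0.644% with a ceiling of 2 germline UMIs per 10000, 1.68% among cells of at least 3000 UMIs, and 0.308% after thinning to 2000 UMIs. With a ceiling that left out vas, chosen after seeing the data, it was 1.85%. The share of nuclei, 0.728%, was 0.430% with at least 2 SGP genes detected.

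Over all other cells 3370 genes were past 2-fold, against 237 after thinning, 2085 with means over cells, 7596 with no filter, and 671 under 12000 UMIs (chosen after seeing the data). Over other germ-marker-low cells the count was 883, against 163 after thinning, 1408 with means over cells, 503 with 30 expected UMIs, and 4006 with no filter. Over Abd-B-negative cells it was 1408, against 108 after thinning, 861 with 30 expected UMIs, 3005 with no filter, and 642 under 12000 UMIs. With median-of-ratios scaling the higher share of these genes was 47.9% over all other cells, where it was 1011 of 3370 with total UMIs, and 57.5% rather than 44.6% over Abd-B-negative cells.

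Of 533 gene ratios under alternatives 518 kept their direction, and 11 of 45 genes reversed under at least 1. After thinning, the ratio over all other cells was 0 for upd3, CG15611, CG34398, CadN, and Toll-6, 0.787 for bbg, 0.853 for org-1, and 0.442 for kon. Under 12000 UMIs it was 0.424 for CG34398, 0.740 for CadN, 0.989 for Toll-6, and 0.910 for Fas3. Over Abd-B-negative cells CG34398 was at 0 after thinning and 0.781 under 12000 UMIs, and Neurochondrin at 1.43 after thinning. Thinning left 28 gated cells and fewer tested genes, and the cause of the other shifts was not tested.

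No paired analysis was possible because each kind of library was a single sample. Depth limits the shallow cells most, in which a lone UMI of Abd-B can decide the gate.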
